A study of Mus musculus with 18 samples.

Results

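Leukocyte integrins are described here through 10 genes, Itgam, Itgax, Itgal, Itgae, Itga1, Itga2, Itga4, Itgb1, Itgb2 and Itgb7, out of 19752 genes measured. Each member was read from the probe set annotated with its symbol alone, and all 10 had exactly 1 such probe set. Levels came from 18 Affymetrix Mouse Gene 1.0 ST arrays, a 1-colour array that covers whole transcripts, with 2 arrays for each of 9 sorted immune cell populations. The cells came from male C57BL/6 mice of 6 weeks, each sampled 2 h after a subcutaneous injection of 10000 U of IFNg, an inflammatory cytokine. Granulocytes (GN, gated as Ly6G+), dendritic cells (DC, CD11c+ MHCII+ Flt3+), NK1.1+ T cells (NKT, NK1.1+ TCRB+), NK cells (NK, NK1.1+ TCRB-), gamma delta T cells (Tgd, TCRgd+ TCRB-), CD8 T cells (T8, CD8+ TCRB+), CD25+ regulatory T cells (Treg, CD4+ TCRB+ CD25+) and CD4 T cells (T4, CD4+ TCRB+) were sorted from spleen. Macrophages (MF, F4/80+ ICAM2+) were sorted from the peritoneal cavity, so cell type and tissue cannot be told apart for them. All populations shared the injection, and untreated animals were not analysed here, so the comparisons address which integrin genes each population expressed and not how they responded to IFNg.

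Integrins are cell surface receptors made of 1 alpha and 1 beta chain, and leukocytes use them to stop on vessel walls, to enter tissue and to hold on to other cells. The beta chain of Itgb2 (CD18) pairs with the alpha chains of Itgal (CD11a, giving LFA-1), Itgam (CD11b, giving Mac-1, the complement receptor of phagocytes) and Itgax (CD11c). The chain of Itgb7 pairs with Itgae (CD103, which binds E-cadherin on epithelial cells) and with Itga4 (CD49d, which binds the gut vessel ligand MAdCAM-1). The chain of Itgb1 (CD29) pairs with Itga4 to bind VCAM-1 and with Itga1 (CD49a) and Itga2 (CD49b) to bind collagens.

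Itgam and Itgax are direct neighbours on chromosome 7, and Itga1 and Itga2 on chromosome 13, with 0 protein-coding gene starts between the genes of either pair in the RefSeq annotation. Their promoters are shown because the genes of each pair had different highest populations. RefSeq promoter sequence of build GRCm38.p6 was at hand for 7 of the 10 members. For these 4 genes, the 250 bases before the annotated start are printed 5′ to 3′ on the strand of the gene. Capitals mark matches on either strand to the motifs named below.
Itgam, chr7:128062390-128062639, plus strand: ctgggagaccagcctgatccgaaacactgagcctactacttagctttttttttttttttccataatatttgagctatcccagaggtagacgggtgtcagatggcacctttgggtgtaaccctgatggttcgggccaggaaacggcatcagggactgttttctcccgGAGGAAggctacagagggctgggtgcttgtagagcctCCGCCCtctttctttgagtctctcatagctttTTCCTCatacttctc
Itgax, chr7:128129300-128129549, plus strand: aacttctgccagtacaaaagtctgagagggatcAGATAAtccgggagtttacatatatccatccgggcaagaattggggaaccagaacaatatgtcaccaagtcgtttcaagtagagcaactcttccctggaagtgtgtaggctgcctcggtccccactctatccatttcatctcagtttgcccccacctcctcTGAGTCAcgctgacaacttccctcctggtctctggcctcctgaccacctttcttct
Itga1, chr13:115101965-115102214, minus strand: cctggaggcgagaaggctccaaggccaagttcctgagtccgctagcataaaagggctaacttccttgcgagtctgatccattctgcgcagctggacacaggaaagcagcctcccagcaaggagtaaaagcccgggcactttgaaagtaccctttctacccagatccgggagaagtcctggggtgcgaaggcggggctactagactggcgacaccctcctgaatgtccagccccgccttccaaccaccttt
Itga2, chr13:114932101-114932350, minus strand: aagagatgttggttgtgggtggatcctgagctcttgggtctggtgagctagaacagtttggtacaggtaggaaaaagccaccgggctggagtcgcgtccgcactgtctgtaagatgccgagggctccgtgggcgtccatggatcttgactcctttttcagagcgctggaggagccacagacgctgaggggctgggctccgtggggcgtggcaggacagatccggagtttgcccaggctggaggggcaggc
The letters searched were GAGGAA for PU.1, GGGCGG for Sp1, TGTGGT for Runx, TGANTCA for AP-1 and AGATAA for GATA, on both strands. The upstream region of Itgam held 2 matches to the PU.1 letters, starting 84 and 15 bases before the start, and 1 to the Sp1 letters, and none of the 3 overlapped. That of Itgax held 1 match to the AP-1 letters, 56 bases before the start, and 1 to the GATA letters. Those of Itga1 and Itga2 held none of the 5 motifs. Over all 32851 RefSeq promoters of this length the shares with a match were 23.3% for PU.1, 32.7% for Sp1, 14.0% for Runx, 6.7% for AP-1 and 10% for GATA. Matches to each motif thus occur in many other promoters, and none was tested as a binding site. The share with 2 PU.1 matches, as in Itgam, was not computed.

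Median intensity lay between 138.5 and 151.0 on the 18 arrays, and Pearson's r over all probe sets was between 0.9901 and 0.996 for the 2 arrays of a population. Precision is limited by having 2 arrays per population, and since nothing in the labels ties the 2 to different animals, a p-value reflects spread between arrays that may be technical only. Markers were highest in the populations sorted for them, a result in part set by the gates. The granulocyte list held the gate gene Ly6g and the NK list Klrb1c. The dendritic cell list held the gate genes Flt3, Itgax and H2-Ab1, and the peritoneal macrophage list Adgre1 and Icam2. Itgax is also one of the integrin members described here. The part of these genes in the means was not tested. The mean of 12 granulocyte markers was highest in GN (12.83 and 13.03), that of 8 NK markers in NK (11.91 and 11.81), that of 8 dendritic cell markers in DC (11.08 and 11.01) and that of 8 peritoneal macrophage markers in MF (12.34 and 12.35). The mean of 7 measured T cell markers lay between 10.90 and 11.43 in the 5 T cell populations, against at most 8.13 elsewhere. The 2 DC arrays stood apart from each other. Granulocyte markers averaged 9.08 on DC replicate 1 and 11.05 on replicate 2, with 12 of 12 at least 2-fold higher on replicate 2, against values between 5.76 and 6.73 in the 6 lymphoid populations. All levels below are log2 intensities, given as mean ± SD with n = 2 arrays, differences are log2 differences ± SE, and levels are compared only within a gene, since probe sets differ in brightness. The median of all gene values was 7.19, and the files used here hold no background measure, so levels under it may not be above background. In sorted pools, a higher level through more expressing cells and one through more RNA per cell cannot be told apart.

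All 10 integrin genes differed between the 9 populations, whereas 39.0% of all genes did. Passing took an adjusted p under 0.05 in limma's moderated F test together with population means that spanned 2-fold or more. The median range of the members was 3.57, against 0.71 for all genes. Among the 6 lymphoid populations 9 of 10 passed, against 9.95% of all genes, and among the 3 myeloid populations 6 of 10 passed, against 27.3%. Of the 7 alpha chain genes, Itgam, Itgax, Itga2, Itgal, Itgae, Itga1 and Itga4 ranged over 6.25, 6.10, 5.20, 5.16, 4.07, 3.06 and 1.31. Of the 3 beta chain genes, Itgb1 ranged over 2.65, Itgb7 over 1.66 and Itgb2 over 1.37, each more than Itga4 and less than the other 6 alpha chains.

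**Figure D1:**
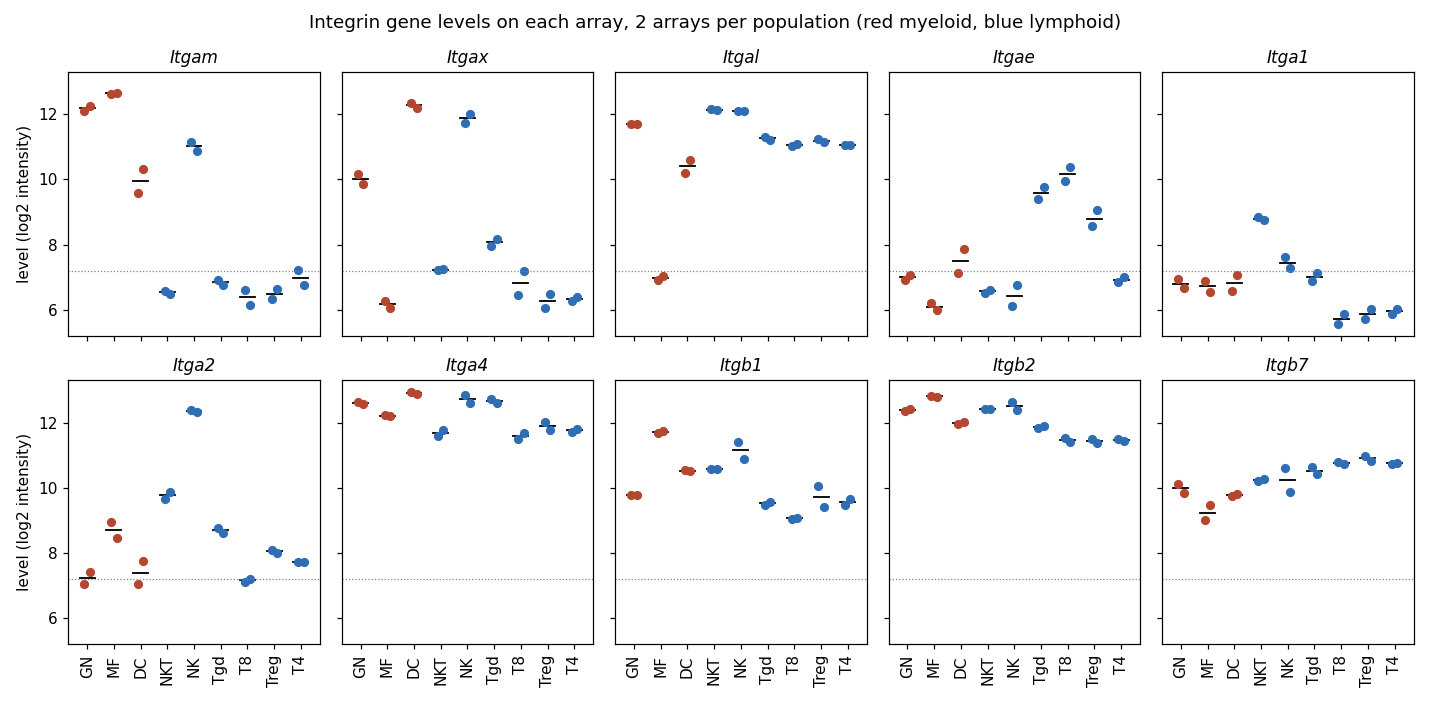
Level (log2 intensity, y axis) of each integrin gene on each of the 18 arrays. Points are arrays, bars population means, the dotted line the median of all gene values (7.19). Itgam was high in MF, GN and NK, Itgax in DC and NK, and Itgal was low in MF alone, at 6.91 and 7.05, with every other array at 10.20 or above.

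Itgb2, the common chain of the CD11 integrins, was bright in every population. It stood highest in MF at 12.80 and 12.79 on the 2 arrays and lowest in Treg at 11.49 and 11.37. The order ran MF, NK, NKT, GN, DC, Tgd, T8, T4 and Treg. NK overlapped with NKT and with GN, and the last 3 populations overlapped, with means of 11.47, 11.46 and 11.43. Its range over the 9 populations was 1.37 (2.58-fold, adjusted p = 1.78e-10), and in MF it was 0.86 ± 0.06 above the mean of the other 8 (adjusted p = 3.32e-09), which is under 2-fold.

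Itgal, the alpha chain of LFA-1, was expressed in 8 populations and stood out by its low level in MF. On the MF arrays it was 6.91 and 7.05, and on those of the next population, DC, 10.20 and 10.61. NKT (12.16 and 12.13) and NK (12.10 and 12.11) were highest, followed by GN (11.70 and 11.71). Tgd, Treg, T8 and T4 lay together, between 11.03 and 11.30 on all 8 arrays. No MF array came near the others. Against the mean of the other 8 populations Itgal was lower in MF, at -4.39 ± 0.08 or 20.9-fold (adjusted p = 4.51e-17), and higher in NKT by 1.42 ± 0.08 (adjusted p = 6.58e-10) and in NK by 1.38 ± 0.08 (adjusted p = 5.8e-10). MF were gated on ICAM2, a ligand of LFA-1. Icam2 itself had its highest mean in MF, at 11.59 ± 0.03, a level in part set by that gate.

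Itgam, the alpha chain of Mac-1, separated phagocytes and NK cells from T cells. It stood at 12.63 and 12.64 in MF, 12.11 and 12.26 in GN, 11.15 and 10.88 in NK and 9.57 and 10.31 in DC. The 10 arrays of T4, Tgd, NKT, Treg and T8 all lay between 6.16 and 7.21, around or under the median of all gene values. These 5 populations were neighbours with gaps of at most 0.31, whereas 2.95 lay between DC and T4. Against the mean of the other 8, Itgam was higher in MF by 4.34 ± 0.16 (20.2-fold, adjusted p = 1.5e-13), in GN by 3.83 ± 0.16 (14.2-fold, adjusted p = 7.47e-13) and in NK by 2.51 ± 0.16 (5.70-fold, adjusted p = 9.58e-10). In DC it was higher by 1.30 ± 0.16 (adjusted p = 2.77e-06). DC replicate 2, the array with more Itgam, also had higher means of the granulocyte markers, of 10 red pulp macrophage markers (9.66, against 8.80 on replicate 1) and of 5 measured monocyte markers (9.71, against 8.57), and their part in the result was not tested. Without it the DC difference was 0.93, under 2-fold (adjusted p = 0.000512).

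Itgax encodes CD11c, on which DC were sorted, so its level in DC was in part set by the gate. It stood at 12.35 and 12.19 in DC, and at 11.87 ± 0.18 in NK, which were not gated on it. GN followed at 10.18 and 9.85 and Tgd at 7.97 and 8.18. NKT had 7.21 and 7.25, T8 6.46 and 7.19, T4 6.27 and 6.39, Treg 6.07 and 6.50 and MF 6.27 and 6.07. T4, Treg and MF overlapped at the bottom, and T8 overlapped with Treg. MF, the population with the highest Itgam and Itgb2, was thus at the bottom with T4 and Treg. The means of these populations and of T8 (6.83) lay under the median of all gene values, so they may not be above background. In NK, Itgax was higher than in the mean of the other 8 by 3.97 ± 0.15 (15.7-fold, adjusted p = 1.15e-12), in GN by 1.88 ± 0.15 (adjusted p = 4.34e-09) and in DC by 4.42 ± 0.15 (21.4-fold, adjusted p = 9.12e-14). In MF it was lower, at -2.44 ± 0.15 (adjusted p = 1.98e-10).

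Itgb7, a chain of the gut and epithelial homing integrins, was highest in Treg, T4 and T8 and lowest in MF. It stood at 10.98 and 10.81 in Treg, 10.74 and 10.77 in T4, 10.78 and 10.72 in T8, and 9.0 and 9.48 in MF. Tgd followed T8 at 10.63 and 10.43, and NKT, at 10.21 and 10.27, had the same mean as NK, 10.24. The difference of MF from the mean of the other 8 was -1.16 ± 0.14 (adjusted p = 1.72e-06), and without MF replicate 2 it was -0.92, under 2-fold. In NK the arrays differed from each other, with 10.60 on replicate 2 and 9.88 on replicate 3. Among lymphoid populations its range was 0.66 (adjusted p = 0.034), too small for the 2-fold limit, and without NK replicate 2 it was 1.02, which passed.

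Itgae, the alpha chain CD103, was high in 3 T cell populations. It stood at 9.96 and 10.39 in T8, 9.41 and 9.76 in Tgd and 8.56 and 9.05 in Treg. In T4, which shares CD4 and TCRB with Treg, it averaged 6.93. DC had 7.14 and 7.86, GN 6.93 and 7.08, NKT 6.53 and 6.60, NK 6.13 and 6.76 and MF 6.21 and 5.99. The 6 arrays of T8, Tgd and Treg thus lay above all other arrays. Itgae was higher than in the mean of the other 8 in T8 by 2.81 ± 0.18 (adjusted p = 1.77e-09), in Tgd by 2.15 ± 0.18 (4.43-fold, adjusted p = 1.09e-07) and in Treg by 1.27 ± 0.18 (2.40-fold, adjusted p = 3.19e-05). It was lower in MF, NK and NKT, at -1.77, -1.39 and -1.25.

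Itga4, which can pair with either Itgb7 or Itgb1, was bright everywhere, with the smallest range of the 10 genes, 1.31 (2.48-fold, adjusted p = 2.34e-09). Its level was 12.90 ± 0.03 in DC, 12.72 ± 0.16 in NK, 12.66 ± 0.07 in Tgd, 12.60 ± 0.05 in GN and 12.21 ± 0.03 in MF. Treg, T4, NKT and T8 formed a lower group whose neighbours overlapped, between 11.89 and 11.59. In DC it was 0.77 ± 0.08 above the mean of the other 8 (adjusted p = 2.38e-07), under 2-fold.

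Itgb1, the partner of the collagen-binding chains, was highest in MF at 11.67 and 11.75 and lowest in T8 at 9.04 and 9.08. NK had 11.41 and 10.89, NKT 10.59 and 10.58 and DC 10.54 and 10.53. GN, Treg, T4 and Tgd had means between 9.77 and 9.52 and overlapped with their neighbours in that order. It was higher than in the mean of the other 8 in MF by 1.72 ± 0.13 (adjusted p = 4.04e-09) and in NK by 1.09 ± 0.13 (adjusted p = 3.6e-06), and lower in T8, at -1.27 ± 0.13 (adjusted p = 7.68e-07). Without NK replicate 2 the NK difference was 0.83, under 2-fold.

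Itga2, the chain recognised by the antibody DX5 that is used to stain mouse NK cells, was highest in NK at 12.39 and 12.32. NKT followed at 9.67 and 9.88, then MF at 8.94 and 8.46 and Tgd at 8.78 and 8.61. The other 5 populations had means between 8.05 in Treg and 7.16 in T8. NK arrays were thus more than 2 log2 units above every other array. The difference from the mean of the other 8 was 4.26 ± 0.15 in NK (19.2-fold, adjusted p = 4.1e-13) and 1.36 ± 0.15 in NKT (adjusted p = 1.55e-06). Itga2 was lower in T8 at -1.58, in GN at -1.50 and in DC at -1.32, the last of which was -0.97 without DC replicate 1.

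Itga1, its neighbour in the genome, was highest in NKT and not in NK. It stood at 8.84 and 8.76 in NKT and at 7.62 and 7.28 in NK. Tgd had 6.90 and 7.13, and DC, GN and MF had means of 6.82, 6.81 and 6.73, so that these 4 populations overlapped in order, below the median of all gene values. T4, Treg and T8 were lowest, at 5.96, 5.87 and 5.73. Against the mean of the other 8, Itga1 was higher in NKT by 2.25 ± 0.13 (4.75-fold, adjusted p = 9.16e-10) and lower in T8, at -1.20 ± 0.13, and in Treg, at -1.04 ± 0.13. The Treg value was -0.90 without Treg replicate 2. In NK it was 0.73 ± 0.13 above the others, under 2-fold.

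In the 9 contrasts that set 1 population against all the rest, which share their arrays, 38 of 90 member tests passed, against 6.84% of all genes' tests. In NK 5 members were higher and 1 lower, against 2.45% and 2.62% of all genes. In MF 2 were higher and 4 lower, against 7.56% and 4.19%, and in NKT 3 were higher and 3 lower, against 1.64% and 2.28%. In T8 1 was higher and 5 were lower, against 1.43% and 3.00%, and in Treg 1 was higher and 3 were lower, against 1.50% and 2.22%. GN and DC each had 2 higher and 1 lower, against 7.03% and 11.7% of all genes in GN and 5.31% and 2.41% in DC. The higher members in DC included Itgax, whose product CD11c was part of the gate. Tgd had 1 higher and 1 lower, against 1.24% and 1.29%, and T4 0 higher and 2 lower, Itgam and Itgax, against 1.33% and 2.37%. Without the fold limit and at an unadjusted p under 0.05 in limma, 2 members were higher and 8 lower in T4.

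**Figure D2:**
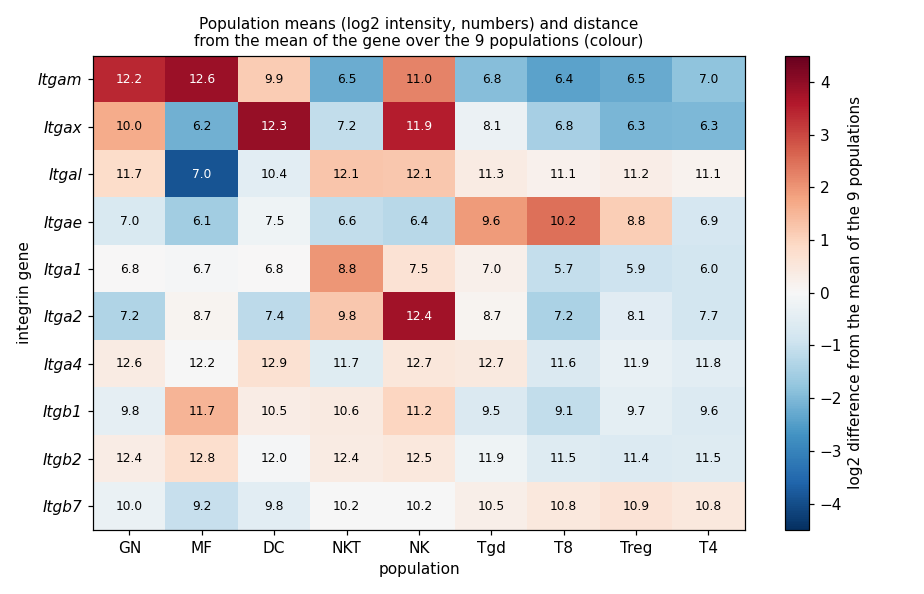
Mean level of each integrin gene (rows, log2 intensity, numbers) in each population (columns), coloured by its distance from the mean of that gene over the 9 populations. NK stood out for Itga2 (12.36) and Itgax (11.87), MF for high Itgam (12.64) and low Itgal (6.98), and T8, Tgd and Treg for Itgae.

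The 3 myeloid populations were set against the 6 lymphoid ones. Of the members 2 were higher in myeloid cells, against 6.39% of all genes, and 3 lower, against 4.41%. Itgam averaged 11.59 over myeloid and 7.38 over lymphoid populations, a difference of 4.21 ± 0.10 (18.5-fold, adjusted p = 4.1e-16). Itgax averaged 9.48 over myeloid and 7.77 over lymphoid populations, a difference of 1.72 ± 0.10 (adjusted p = 5.38e-11). Its myeloid mean includes DC, which were gated on its product CD11c and stood at 12.27, beside 10.01 in GN. The part of the gate in this difference was not tested. The class means of Itgax also hide opposite populations within each class. It stood at 6.17 in MF, overlapping with T4 and Treg, and at 11.87 in NK, above GN. Itgal, Itgae and Itga2 were lower in myeloid cells, at -1.77 ± 0.05, -1.21 ± 0.12 and -1.19 ± 0.10 (adjusted p = 8.95e-15, 6.47e-08 and 7.45e-09). The low myeloid mean of Itgal came with MF at 6.98, beside 11.71 in GN and 10.41 in DC. Single populations crossed the classes for the other 2 genes as well. Itga2 stood at 8.70 in MF, above Treg (8.05), T4 (7.73) and T8 (7.16), and was 12.36 in NK. Itgae stood at 7.50 in DC and 7.01 in GN, beside 6.93 in T4, 6.57 in NKT and 6.44 in NK. Itgb7 at -0.90, Itgb1 at 0.74, Itgb2 at 0.53 and Itga4 at 0.52 differed with adjusted p between 5.17e-09 and 8.2e-07 but by less than 2-fold. Itga1 did not pass, at -0.02 ± 0.09 (adjusted p = 0.905).

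**Figure D3:**
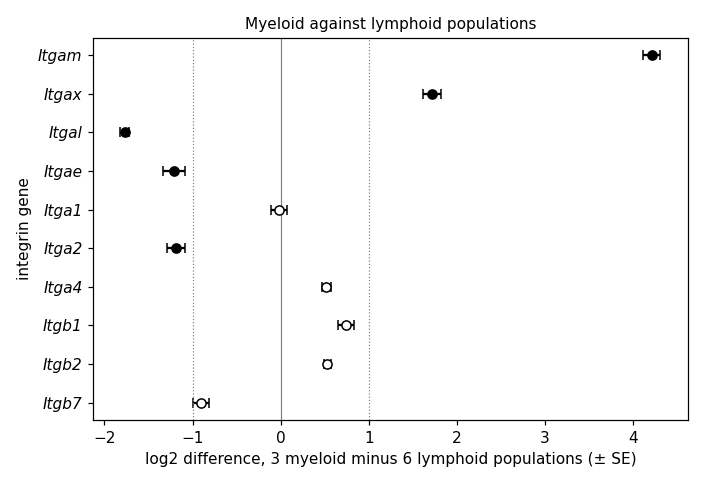
Log2 difference of the mean of GN, MF and DC minus the mean of NKT, NK, Tgd, T8, Treg and T4 for each integrin gene (x axis, bars ± SE). Filled points passed, dotted lines mark 2-fold. Itgam lay far to the right at 4.21, and Itgal farthest to the left at -1.77.

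In 8 contrasts between related populations, 33 of 80 member tests passed, against 7.61% of all genes' tests. Among the 3 contrasts of myeloid populations, which share arrays, MF against DC had 3 members higher, against 5.89% of all genes, and 3 lower, against 4.97%. Itgam was higher in MF by 2.70 ± 0.21 (adjusted p = 1.05e-08), Itga2 by 1.31 ± 0.20 and Itgb1 by 1.17 ± 0.17. Itgax was lower in MF, at -6.10 ± 0.20 or 68.7-fold (adjusted p = 9.15e-14), which includes the CD11c gate of DC, and Itgal was lower at -3.43 ± 0.11 (10.8-fold, adjusted p = 8.21e-14) and Itgae at -1.40 ± 0.23. The Itga2 difference was 0.95 without DC replicate 1. GN against MF had 2 members higher, against 6.59% of all genes, and 2 lower, against 14.1%. Itgal was higher in GN by 4.73 ± 0.11 (26.5-fold, adjusted p = 2.56e-15) and Itgax by 3.84 ± 0.20 (14.3-fold, adjusted p = 2.96e-11), and Itgb1 and Itga2 were lower, at -1.93 ± 0.17 and -1.47 ± 0.20. These 4 genes also passed between MF and DC, with Itgal and Itgax lower and Itgb1 and Itga2 higher in MF in both contrasts. Itgam was -0.45 ± 0.21 between them (adjusted p = 0.0648). GN against DC had 2 members higher, Itgam by 2.24 ± 0.21 and Itgal by 1.30 ± 0.11, against 5.77% of all genes. It had 1 lower, Itgax at -2.26 ± 0.20, against 11.1%, and this value again includes the CD11c gate. Granulocyte markers averaged 9.08 and 11.05 on the 2 DC arrays, and their part in the contrasts with DC was not tested. In these GN contrasts the median over all genes was 0.18 against DC and 0.20 against MF.

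Between NKT and NK, which share the NK1.1 gate, 1 member was higher in NKT, against 1.51% of all genes, and 4 were lower, against 2.16%. Itgax stood at 7.23 ± 0.03 in NKT and 11.87 ± 0.18 in NK, a difference of -4.64 ± 0.20 (24.9-fold, adjusted p = 1.54e-11). Itgam stood at 6.54 ± 0.05 in NKT and 11.02 ± 0.19 in NK, a difference of -4.48 ± 0.21 (22.3-fold, adjusted p = 5.12e-11). Itga2 differed by -2.58 ± 0.20 (adjusted p = 2.9e-08) and Itga4 by -1.04 ± 0.10. The Itga4 value was under 2-fold without NK replicate 2 (-0.93) or NKT replicate 1 (-0.95). Itga1 was higher in NKT by 1.35 ± 0.18 (adjusted p = 2.95e-05). The chains of LFA-1 did not pass, Itgal by 0.04 ± 0.11 (adjusted p = 0.863) and Itgb2 by -0.10 ± 0.09 (adjusted p = 0.484).

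NK against T8, a pair of cytotoxic lymphocytes, differed in 9 of 10 members, 8 of them higher in NK, against 3.11% of all genes, and 1 lower, against 2.27%, or 5.39% in either direction. The largest were Itga2 at 5.20 ± 0.20 (36.7-fold, adjusted p = 1.81e-12), Itgax at 5.04 ± 0.20 and Itgam at 4.63 ± 0.21. Itgb1 was higher by 2.10 ± 0.17 and Itga1 by 1.72 ± 0.18, and Itga4, Itgal and Itgb2 by 1.12, 1.05 and 1.05. Itgae was lower in NK, at 6.13 and 6.76, against 9.96 and 10.39 in T8, a difference of -3.73 ± 0.23 (13.3-fold, adjusted p = 1.46e-09). Itgb7 did not pass, at -0.51 ± 0.18 (adjusted p = 0.0667). The T8 means of Itga1 (5.73), Itgam (6.39), Itgax (6.83) and Itga2 (7.16) lay under the median of all gene values. So did the NK mean of Itgae (6.44), and these levels may not be above background. The Itgb2 value was 0.93 without NK replicate 2 and 0.98 without T8 replicate 3.

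Itgae was the member that passed both between T8 and T4 and between Treg and T4. T8 against T4 had 1 member higher, against 0.425% of all genes, and 0 lower, against 0.537%. It was Itgae, higher by 3.25 ± 0.23 (9.50-fold, adjusted p = 9.65e-08), while the other 9 had adjusted p of 0.151 or more. At an unadjusted p under 0.05 in limma and without the fold limit, 2 members were higher and 3 lower in T8. Treg against T4 likewise had 1 higher, against 0.521%, and 0 lower, against 0.354%. It was again Itgae, higher by 1.88 ± 0.23 (3.67-fold, adjusted p = 7.53e-05). At an unadjusted p under 0.05 in limma and without the fold limit, 1 member was higher and 1 lower in Treg. The T4 gate did not leave out CD25+ cells. Foxp3, the factor that defines regulatory T cells, stood at 12.01 in Treg and 9.97 in T4, against at most 7.71 in every other population, and the part of such cells in the T4 levels was not tested.

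Tgd against the mean of T4 and T8 had 4 members higher, against 1.16% of all genes, and 0 lower, against 0.309% (0 also at an unadjusted p under 0.05 in limma). Itgax was higher by 1.50 ± 0.17 (2.82-fold, adjusted p = 1.27e-05), Itga2 by 1.25 ± 0.17 (adjusted p = 7.66e-05), Itga1 by 1.17 ± 0.15 (adjusted p = 6.42e-05) and Itgae by 1.04 ± 0.20 (adjusted p = 0.00264). Itga1 stood at 7.01 in Tgd and 5.85 over T4 and T8, both under the median of all gene values, so neither may be above background. The Itgae value hides a split of the comparison groups, since T8 stood at 10.17 and T4 at 6.93 around 9.59 in Tgd, and it was 0.86 without Tgd replicate 3, 1.00 without T4 replicate 2 and 0.93 without T8 replicate 2, none of which passed. Itga4 was 0.98 ± 0.09 higher, just under 2-fold, and it passed without T4 replicate 3, T8 replicate 3 or Tgd replicate 3 (1.01 to 1.03). The means of the 8 NK markers and of 8 measured B cell markers were also higher in Tgd. That of the NK markers was 7.93 and 7.70 in Tgd, against 6.45 and 6.33 in T8 and 5.79 and 5.70 in T4, with 11.91 and 11.81 in NK. That of the B cell markers was 7.67 and 7.90 in Tgd, against 7.05 and 6.72 in T8 and 6.68 and 6.74 in T4, and the part of either list in the result was not tested.

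**Figure D4:**
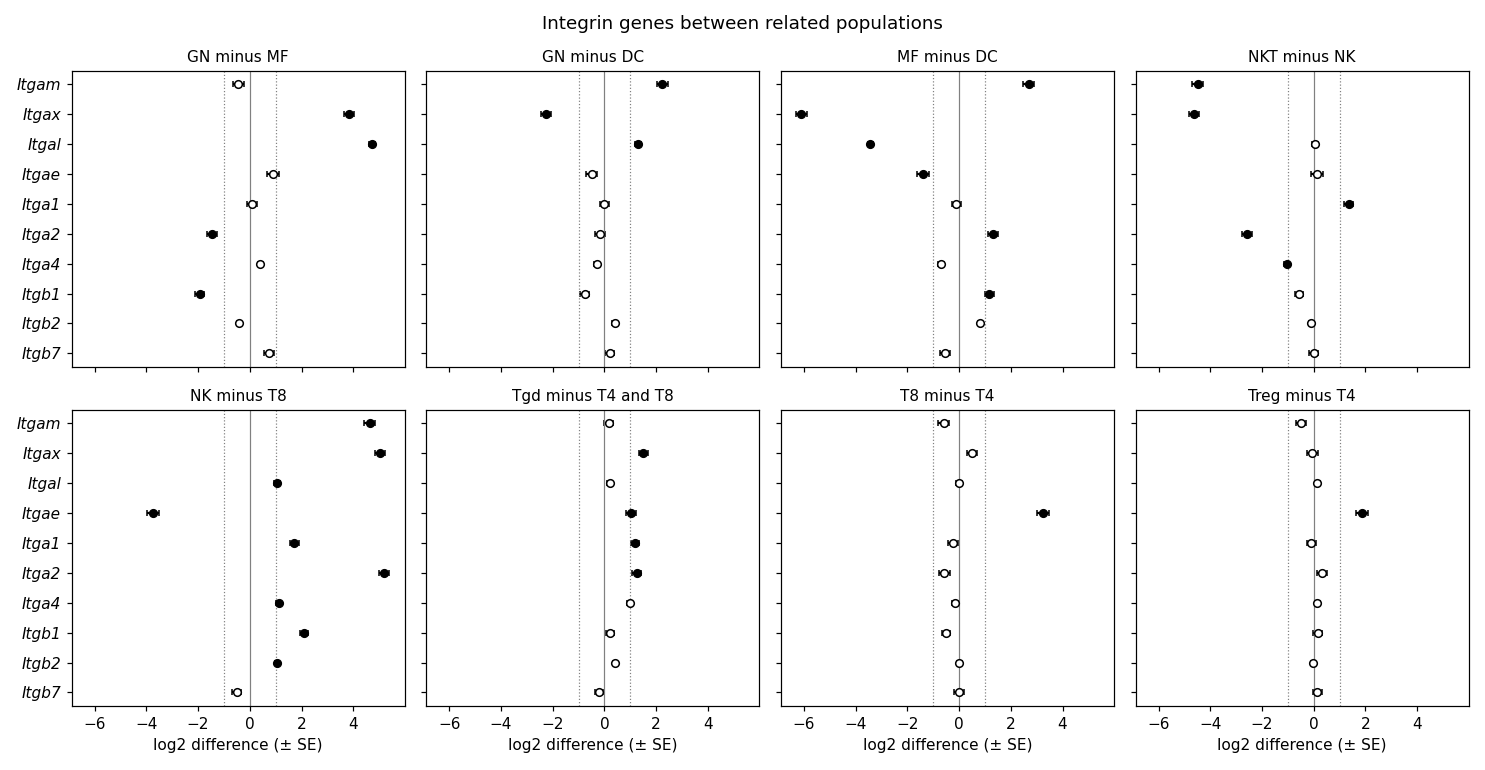
Log2 differences (x axis, ± SE) of the 10 integrin genes in 8 contrasts between related populations, first-named population minus the second. Filled points passed, dotted lines mark 2-fold. Itgae alone passed in T8 minus T4 and in Treg minus T4, and 9 of 10 genes passed in NK minus T8.

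The patterns of alpha chains over the 9 population means were set beside those of their beta partners. These correlations describe 9 means that share arrays and normalization. Values are Pearson's r. Itgam had r = 0.77 with Itgb2 and Itgax r = 0.33. Itgal had r = -0.32 with Itgb2 but a Spearman's rho of 0.17, so the sign depends on the measure, and MF had by far the lowest Itgal together with the highest Itgb2. Itgae had r = 0.63 with its partner Itgb7 and -0.78 with Itgb1, with which it does not pair. Itga2 had r = 0.59, Itga1 0.51 and Itga4 0.33 with Itgb1, and Itga4 had -0.48 with Itgb7. Of the beta chains Itgb1, Itgb2 and Itgb7, a partner gave the highest r for Itgam, Itgax, Itgae and Itga2. For Itgal, Itga1 and Itga4 the highest r was with a chain not named above as a partner. Itgal had 0.66 with Itgb7, and Itga1 had 0.67 and Itga4 0.41 with Itgb2. By Spearman's rho, Itga1 still had its highest value with Itgb2 (0.62, against 0.52 with Itgb1). Itgal had a rho of 0.18 with Itgb7, beside 0.17 with Itgb2. For Itga4 the partner Itgb1 was highest by rho (0.37, against 0.33 with Itgb2), so its order depends on the measure. By Pearson's r the patterns thus did not follow pairing for every alpha chain. The beta chains Itgb1 and Itgb2 ran together with r = 0.84, and Itgb7 ran against both, with r = -0.79 and -0.84. The neighbours Itgam and Itgax had r = 0.48 (rho 0.20), and Itga1 and Itga2 had 0.60 (rho 0.67).

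Among the 7382 genes searched, all of which passed the test over the 9 populations, those whose 9 population means were most like a member were named. Closest to Itgam was Fcgr3, an Fc receptor of phagocytes and NK cells (r = 0.985), then Slc35f5 and Pqlc3 (both 0.984). Closest to Itgax were Scimp, an adaptor of antigen-presenting cells (0.988), Cfap126 (0.962) and Camta2 (0.958), and closest to Itgal were Sh2d3c (0.991), Dennd1c (0.983) and Mob3a (0.981). Itgae was less closely matched, by Cd8b1, the beta chain of the CD8 coreceptor (0.876), by the potassium channel gene Kcna2 (0.841) and by Mex3a (0.834). Itga2 was matched by Lrig3 (0.965), Ctla2b (0.946) and Klrb1a, an NK cell lectin receptor (0.940), and Itga1 by Rmdn2 (0.897), Mical2 (0.896) and B3galt5 (0.882). For Itga4 they were Nt5c2 (0.864), Cd244a, the SLAM family receptor 2B4 (0.856), and again Cfap126 (0.855). Itgb1 was closest to Aplp2 and Fbxw8 (both 0.964), Itgb2 to Ern1 (0.957) and Hip1 (0.934), and both had Enpp5 among the first 3 (0.950 and 0.940). Itgb7 was closest to Kmt2d and Eva1b (both 0.979) and to H2-T10, an MHC class I-like gene (0.977).

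A list of 17 other genes, all measured, held integrin chains and Itgbl1, which encodes an integrin-like protein and not a chain. Of these, 9 passed over the 9 populations, against 39.0% of all genes, with a median range of 1.14, against 0.71 for all genes. Itgbl1 did not pass. Itga6, which pairs with Itgb1 or Itgb4 to bind laminins, ranged over 5.82, from 12.23 ± 0.01 in MF to 6.41 ± 0.29 in DC (adjusted p = 3.81e-15). Itgb8, a partner of Itgav that activates TGF-beta, was highest in Treg at 9.35 ± 0.10 and lowest in NK at 6.23 ± 0.03. Itgb3, a partner of Itgav and Itga2b, was highest in NKT at 11.22 ± 0.04 and lowest in NK at 8.21 ± 0.08. Itga9 was highest in MF at 9.46 ± 0.10, Itga5, the fibronectin receptor chain, in GN at 10.30 ± 0.30, and Itgav in DC at 10.51. Itgad, which lies next to Itgax, was highest in Tgd at 8.42 ± 0.01, and Itgb5 and Itga8 ranged over 1.30 and 1.14 near the median of all gene values. Between myeloid and lymphoid cells 2 of 17 were higher, Itga9 and Itga5, each by 1.28, against 6.39% of all genes, and 0 were lower, against 4.41%, or 5 at an unadjusted p under 0.05 in limma without the fold limit.

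**Figure D5:**
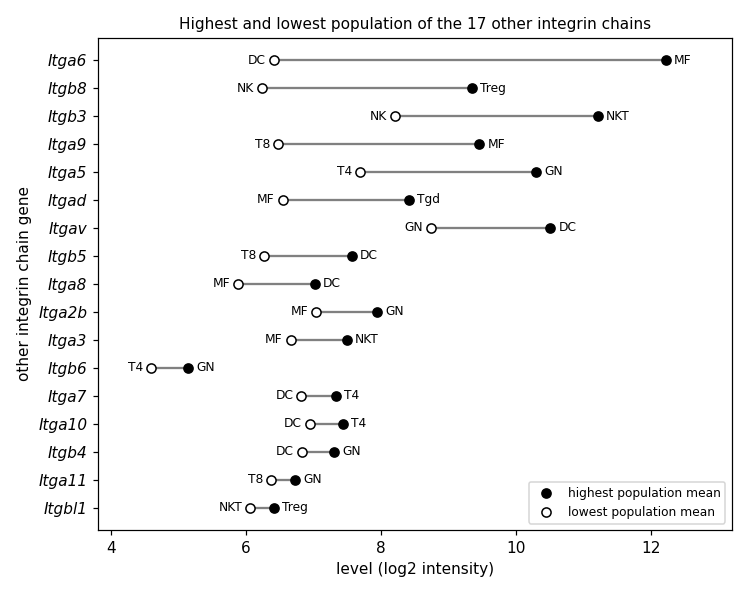
Highest (filled) and lowest (open) population mean of the 17 other listed genes, integrin chains and the integrin-like Itgbl1. Levels are in log2 intensity, with the population named at each end. Itga6 spanned the most, from 12.23 in MF to 6.41 in DC.

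Of 33 listed activators and adaptors, proteins that act on integrins from inside the cell and of which some, such as Sipa1, Rap1gap and Sharpin, restrain their activation, 32 were measured. Of these 21 passed over the 9 populations, against 39.0% of all genes, with a median range of 1.45, against 0.71. Rasgrp1, which activates Ras in lymphocytes, ranged over 5.41, from 12.20 in T4 to 6.79 ± 0.12 in GN (adjusted p = 1.95e-17). Skap1, an adaptor of T cells in the Rap1 pathway, was highest in T4 at 11.13 ± 0.10 and lowest in MF at 6.33 ± 0.23, and its relative Skap2 highest in GN at 11.43 ± 0.04 and lowest in T8 at 7.05 ± 0.25. Parvg, an actin-linking partner of Ilk, had its top level in DC, at 11.31 ± 0.04, and its lowest in MF, at 6.76 ± 0.33. Of the 32, 3 were higher in myeloid cells, against 6.39% of all genes, and 5 lower, against 4.41%. The core activators Tln1 (talin), Rap1b and Fermt3 (a kindlin) were named after their values were seen, and ranged over 0.97, 0.73 and 1.49, the first 2 under 2-fold.

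Of 25 listed ligands 23 were measured and 10 passed, near the 39.0% of all genes, and their median range of 0.56 was under the 0.71 of all genes. Fn1, the matrix protein fibronectin, ranged over 7.02, from 13.54 ± 0.02 in MF to 6.52 ± 0.08 in Tgd (adjusted p = 1.07e-08), and Thbs1, the matrix protein thrombospondin, over 6.53, from 13.29 ± 0.08 in MF to 6.76 ± 0.02 in Tgd. Thy1, a T cell surface protein that integrins can bind, was highest in T8 at 12.37 ± 0.07 and lowest in MF at 6.98 ± 0.01. Jam2, a junction protein bound by Itga4 with Itgb1, was highest in MF at 11.06 ± 0.03 and lowest in NK at 6.05 ± 0.01. Of the 23, 4 were higher in myeloid cells, against 6.39% of all genes, and 1 was lower, against 4.41%.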

How the data were processed

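Per the submitters' processing notes, the deposited intensity values, 1 per probe set and array on a linear scale, were made with Affymetrix Power Tools and RMA, which corrects background, normalizes and summarises probes. Versions, and whether all 18 arrays were normalized together, are not given in the sources used here. RMA compresses differences of dim genes. Log2 was taken of all 24922 probe sets. Of these, 21425 carried 1 symbol in GEO's platform annotation, 21347 of them updated by Entrez number through RefSeq (GRCm38.p6). For 921 genes with several such sets the brightest was used. Another 3 sets listed Itgam together with Rpl35 and were not used. limma 3.58.1 in R 4.3.3 fitted 19752 genes on 18 arrays, with a mean for each population as the sole terms (9 residual and 7.69 prior degrees of freedom, mean-variance trend). Every p is limma's, two-sided for contrasts, and adjusted by Benjamini-Hochberg over all genes of a test. A call needs an adjusted p under 0.05 and a 2-fold difference. The procedure was tested on simulated data. Named were all members, other chains past the F test, 4 genes with the largest range in each further list, and the 3 genes most like each member by Pearson's r over 9 means, without clones and small RNAs. Members and lists were chosen with earlier results of these data known.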

Additional observations from a re-analysis of the deposited data

How the results depend on the processing

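The alternatives were a replicate block, no variance trend, a filter on dim genes, quantile normalization, arrays centred on their median, the mean of a gene's probe sets, no fold threshold, only the compared populations in the fit, and each of the 18 arrays left out. All 10 members passed over the 9 populations under each alternative that refits this test. With 1 array left out, the counts were 9 over lymphoid populations, 6 over myeloid ones and 5 between myeloid and lymphoid, as in the full data, 37 to 39 of 90 against the other 8 and 31 to 34 of 80 between related populations. The lymphoid count of 9 held other genes without NK replicate 2, where Itgb7 passed (1.02) and Itgb2 did not (0.98). The lists gave 8 to 9 other chains, 20 to 22 activators and 9 to 10 ligands. Without the fold threshold, which admits smaller differences by construction, counts were 9 between myeloid and lymphoid and 75 against the other 8. They were 16 in the list of other chains, with Itgbl1 among them, and 18 ligands. Of 123 single values no called one changed sign. With quantile normalization, Itgb2 over lymphoid populations (0.99), Itga4 in NKT minus NK (-0.97), and Itgal (0.94) and Itgb2 (0.97) in NK minus T8 fell under 2-fold, and Itgb7 in myeloid minus lymphoid reached it (-1.01). With arrays centred on their median, Itgae in Tgd minus T4 and T8 was 0.94, and Itgal and Itgb2 in NK minus T8 were 1.00 and did not pass. The cause was not tested. Uncalled values near 0 changed sign: Itga1 in myeloid minus lymphoid was 0.01 with the replicate block and between 0.00 and 0.07 without DC replicate 1, GN replicate 2, MF replicate 3, NK replicate 2, T8 replicate 3, Tgd replicate 3 or Treg replicate 3 (range with 1 array left out -0.10 to 0.07). Itgal in NKT minus NK was -0.02 with centred arrays, and Itgb2 there was 0.02 without NK replicate 2 (range -0.22 to 0.02). Replicate numbers recur in the titles, but only 8 of 18 pairs of populations with the same numbers had deviations that correlated over 0.1 (range -0.161 to 0.468), and the labels do not say what a number marks, so the arrays were not treated as paired. All pairs among NK, T4, T8 and Treg were over 0.1 (0.127 to 0.468). With the replicate block 10 members passed over the 9 populations, 38 of 90 tests against the other 8, 34 of 80 between related populations, and 20 activators and 9 ligands passed. It ended no call of a member, added Itgae in GN minus MF (1.21, against 0.90 without it) and took Ilk (0.95) and Jam3 (0.93) under 2-fold over the 9 populations. The 2 arrays per population and dim levels of Itga1, whose highest mean was 8.80, limit what can be resolved.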
